A study of Arabidopsis thaliana with 9 samples.

Results

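The genes described here are the cellulose synthases of the primary wall (CESA1, CESA2, CESA3, CESA5 and CESA6), those of the secondary wall (CESA4, CESA7 and CESA8) and the callose synthase PMR4 of Arabidopsis thaliana. They were taken from the table by locus code, 9 of its 32833 loci, by a rule that uses no measured value, although the set was proposed with earlier results of these data known. RNA was sequenced from whole Col-0 wild type seedlings that had grown for 5 days on solid and then for 5 days in liquid half-strength MS medium. In 3 libraries the seedlings had been given 200 uM 2'-AA (2'-aminoacetophenone, a bacterial quorum sensing molecule), in 3 they had been given 100 nM flg22 (the peptide of bacterial flagellin that the receptor FLS2 binds), and 3 mock libraries were labelled as untreated. The labels do not state the length of the treatments or the hour of harvest.

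Cellulose is spun out at the plasma membrane by rosette-shaped complexes in which different CESA proteins sit together. In expanding cells CESA1 and CESA3 are joined by one of the related proteins CESA6, CESA2 or CESA5, whereas CESA4, CESA7 and CESA8 build the thickened walls of xylem vessels and fibres, and loss of any of these last 3 collapses the vessels. Callose is a different glucan, made by a separate family of large membrane enzymes, and PMR4 (also called GSL5 or CALS12) makes the callose that is laid down at sites of wounding and of attempted fungal entry and in leaves treated with flg22.

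Each library held between 26644996 and 33195007 counts, and all 9 genes were well above detection, from 180 counts (CESA8 in a flg22 library) to 17371 counts (CESA3 in a mock library). Levels are given as CPM (counts-per-million of the library, scaled by TMM). Differences were tested with edgeR's quasi-likelihood test over 21059 genes, and a gene was called when its Benjamini-Hochberg adjusted p was under 0.05. Numbered as in the labels, the libraries 2'-AA 2, flg22 2 and mock 3 stood apart in the share of counts from chloroplast genes, 0.0743% to 0.241% against 0.0211% to 0.0281% in the other 6, and without them, or with them as a term of the fit, the number of these 9 genes called was the same in each comparison. The design text calls the libraries biological replicates without saying whether they came from separate cultures, so p-values speak only of the variation among these 9 libraries, which may be technical.

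All 8 cellulose synthases fell in both treatments and PMR4 was not called in either. In 2'-AA seedlings 8 of the 9 genes were called lower than in mock seedlings, with a median log2 fold change of -0.61 over the 9, in a comparison where 62.2% of all tested genes were called and 31.1% of all tested genes were called lower. In flg22 seedlings 8 of the 9 were called lower than in mock seedlings, with a median of -0.42, where 59.2% of all tested genes were called and 29.4% were called lower. The median over all tested genes was -0.0026 for 2'-AA and -0.0042 for flg22. The treated and mock libraries of the 8 called genes did not overlap, a separation that 67.9% of tested genes showed for 2'-AA and 65.5% for flg22. In a test against a 1.5-fold change in place of no change, CESA5, CESA4, CESA7 and CESA8 were called in both treatments and the other 5 genes in neither. Both treatments were set against the same 3 mock libraries, so their values are given side by side and are not independent. In whole seedlings, fewer cells of a type and less RNA per cell cannot be told apart.

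**Figure D1:**
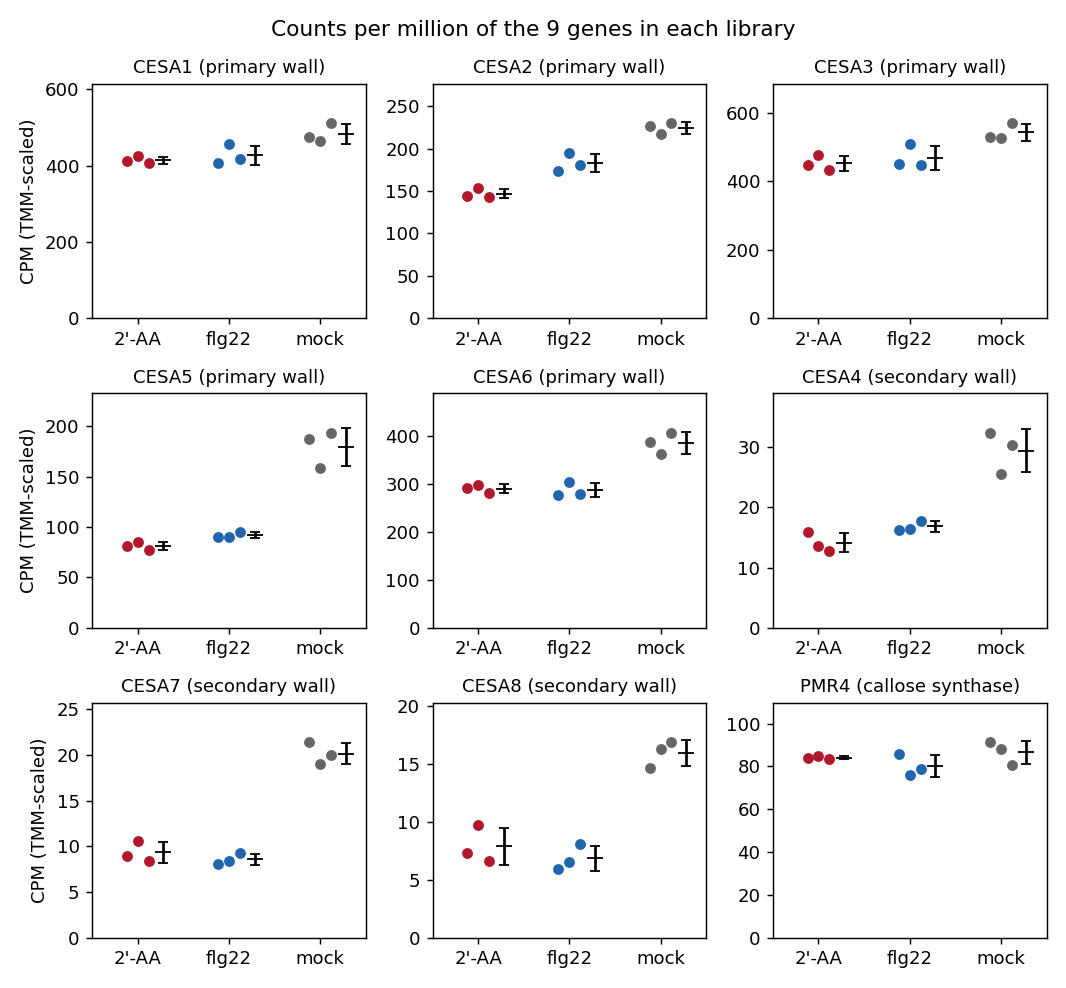
CPM (vertical axes, from 0) of each gene in each library, with 2'-AA, flg22 and mock from left to right; points are libraries and bars the mean and SD of 3. The mock libraries lie above all treated libraries for the 8 CESA genes, and the PMR4 libraries of the 3 groups share a range from 76.0 to 91.2 CPM.

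Of the primary wall genes, CESA1 and CESA3, the obligate subunits of the primary complex, changed least. CESA1 (AT4G32410, chr4:15640490-15646844, minus strand, 14 exons) had 411, 425 and 406 CPM in 2'-AA libraries and 408, 456 and 418 CPM in flg22 libraries, against 474, 463 and 513 CPM in mock libraries. The groups did not overlap, but flg22 2 (456 CPM) and mock 2 (463 CPM) were close. CESA1 was 14.4% lower in 2'-AA than in mock seedlings (log2 fold change -0.22, SE 0.06, adjusted p = 0.0079) and 11.6% lower in flg22 than in mock seedlings (-0.18, SE 0.06, adjusted p = 0.028). CESA3 (AT5G05170, chr5:1530132-1535558, minus strand, 15 exons) had 447, 477 and 433 CPM in 2'-AA libraries and 449.9, 508 and 447 CPM in flg22 libraries, against 529, 528 and 571 CPM in mock libraries. The treated libraries all lay below the mock libraries, with flg22 2 the highest of them. CESA3 was 16.7% lower in 2'-AA (-0.26, SE 0.07, adjusted p = 0.0046) and 13.7% lower in flg22 seedlings (-0.21, SE 0.07, adjusted p = 0.017). The flg22 call of both genes was lost when any of several single libraries was left out. Under the alternatives the log2 fold change stayed between -0.22 and -0.12 for CESA1 and between -0.26 and -0.16 for CESA3. Without flg22 1, flg22 3 or mock 3 neither gene was called, with adjusted p between 0.059 and 0.14, and without mock 1 CESA1 was also lost at adjusted p = 0.055; the 2'-AA calls held without any 1 library.

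CESA6, CESA2 and CESA5 are partly interchangeable in the third position of the primary complex, and their changes were unequal. CESA6 (AT5G64740, chr5:25881033-25886728, plus strand, 13 exons) had 291, 298 and 279.6 CPM in 2'-AA libraries and 277, 304 and 279 CPM in flg22 libraries, against 386, 361 and 406 CPM in mock libraries. The 2 treatments shared a range and the mock libraries lay above it. The decrease of CESA6 was 24.7% in 2'-AA (-0.41, SE 0.06, adjusted p = 0.00010) and 25.4% in flg22 seedlings (-0.42, SE 0.06, adjusted p = 8.7e-05). CESA2 (AT4G39350, chr4:18296388-18302192, plus strand, 13 exons) had 144, 153 and 143 CPM in 2'-AA libraries and 174, 195 and 181 CPM in flg22 libraries, against 226, 217 and 231 CPM in mock libraries. The 3 groups of CESA2 did not overlap, with 2'-AA lowest, flg22 between and mock highest. CESA2 was 34.6% lower in 2'-AA (-0.61, SE 0.06, adjusted p = 1.9e-06) and 18.5% lower in flg22 seedlings than in mock seedlings (-0.30, SE 0.06, adjusted p = 0.0012).

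CESA5 (AT5G09870, chr5:3072870-3078416, plus strand, 13 exons), which also acts in the cellulose of seed coat mucilage, had the largest decrease of the primary wall genes in both treatments. It had 81.0, 85.4 and 76.8 CPM in 2'-AA libraries and 90.0, 89.9 and 95.3 CPM in flg22 libraries, against 187, 158 and 194 CPM in mock libraries. Even the lowest mock library was more than 60 CPM above the highest treated one. The decrease was 54.9% in 2'-AA (-1.15, SE 0.08, adjusted p = 4.4e-08) and 49.0% in flg22 seedlings (-0.97, SE 0.08, adjusted p = 2.6e-07), and 9.94% of all tested genes had a lower fold change than CESA5 in 2'-AA and 11.0% in flg22 seedlings.

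CESA5 and CESA6 are the most alike of the 9 genes, with 91.8% identical residues and 86.2% identical coding bases, so whether short reads can tell them apart matters for these values. Their longest identical coding run was 50 bases, and no other pair among the 8 CESA genes shared a run of that length. It is shown here with 40 coding bases on each side, read from the RefSeq TAIR10.1 genome, with the 7 bases that differ in capitals; each stretch lies within 1 exon.
CESA5 (chr5:3075988-3076117, plus strand): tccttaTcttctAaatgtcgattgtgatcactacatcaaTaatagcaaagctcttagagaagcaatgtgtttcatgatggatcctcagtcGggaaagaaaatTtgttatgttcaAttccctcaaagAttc
CESA6 (chr5:25884333-25884462, plus strand): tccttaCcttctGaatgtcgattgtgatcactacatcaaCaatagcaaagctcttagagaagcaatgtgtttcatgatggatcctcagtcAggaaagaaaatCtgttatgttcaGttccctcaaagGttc
A read in this stretch that is longer than the run covers at least 1 of these differing bases. No read length is given here, and transcript bases outside the coding sequence were not compared. Within each library CESA5 was set against CESA6 per kilobase of coding sequence: the ratio was 0.283, 0.290 and 0.279 in 2'-AA libraries and 0.329, 0.300 and 0.347 in flg22 libraries, against 0.491, 0.445 and 0.484 in mock libraries. CESA5 was thus lower relative to CESA6 in every treated library than in any mock library, which restates its larger fall given above. The ratio was also lower in every 2'-AA library than in any flg22 library. An exact permutation test gave two-sided p = 0.10 for 2'-AA against mock, flg22 against mock and 2'-AA against flg22. This is the smallest p that 3 against 3 libraries allow, so the test cannot set these comparisons apart.

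The 250 bases before the annotated CESA5 start (RefSeq TAIR10.1) are shown because they held the only W-box letters of the 9 genes. The W-box, the element that WRKY factors bind, was searched as TTGACC or TTGACT on both strands, and CESA5 had 2 matches, both on the other strand and so printed as AGTCAA. At least 1 match was in 28.4% and at least 2 were in 6.18% of 27443 such windows over the genome. The last stretch in capitals is a match to the element of the secondary wall MYB factors, searched on both strands as ACC, A or T, A, A or C, and C or T in a row, which 29.4% of the windows held and which CESA1, CESA5 and CESA4 held once each. Sequences are given along the strand of the gene.
CESA5 (chr5:3072620-3072869, plus strand): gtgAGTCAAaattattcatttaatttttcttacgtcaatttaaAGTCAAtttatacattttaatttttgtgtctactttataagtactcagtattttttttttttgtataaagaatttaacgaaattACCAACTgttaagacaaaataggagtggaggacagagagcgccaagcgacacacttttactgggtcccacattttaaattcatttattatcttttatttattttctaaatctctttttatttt
These matches are letters only and no binding was measured. The evening element AAAATATCT, which clock factors bind, was in 2.36% of the windows and in none of the 9.

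The 3 secondary wall genes fell by between 42.8% and 57.5%, and each is needed for the complex that thickens vessel walls. CESA4 (AT5G44030, also IRX5, chr5:17714390-17719723, plus strand, 11 exons) had 15.9, 13.6 and 12.8 CPM in 2'-AA libraries and 16.3, 16.4 and 17.8 CPM in flg22 libraries, against 32.4, 25.5 and 30.3 CPM in mock libraries. The 2'-AA libraries lay below the flg22 libraries and both lay below the mock libraries. CESA4 was 52.0% lower in 2'-AA (-1.06, SE 0.11, adjusted p = 2.9e-06) and 42.8% lower in flg22 seedlings (-0.81, SE 0.11, adjusted p = 3.8e-05). CESA7 (AT5G17420, also IRX3, chr5:5736630-5741500, minus strand, 12 exons) had 8.97, 10.6 and 8.42 CPM in 2'-AA libraries and 8.07, 8.39 and 9.24 CPM in flg22 libraries, against 21.4, 19.0 and 20.0 CPM in mock libraries. No treated library came within 8 CPM of a mock library. CESA7 was 53.7% lower in 2'-AA (-1.11, SE 0.11, adjusted p = 1.7e-06) and 57.5% lower in flg22 seedlings (-1.23, SE 0.11, adjusted p = 8.0e-07). CESA8 (AT4G18780, also IRX1, chr4:10312624-10316886, minus strand, 12 exons) had 7.34, 9.71 and 6.63 CPM in 2'-AA libraries and 5.97, 6.51 and 8.05 CPM in flg22 libraries, against 14.7, 16.3 and 16.9 CPM in mock libraries. The 2 treatments overlapped and the mock libraries lay above both. CESA8 was 50.6% lower in 2'-AA (-1.02, SE 0.15, adjusted p = 6.8e-05) and 57.0% lower in flg22 seedlings (-1.22, SE 0.16, adjusted p = 1.7e-05).

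Of the neighbours on the chromosome, 2 genes on the other strand overlap CESA8, MYB98 (AT4G18770) by 481 bases and the noncoding AT4G06845 by 81 bases. MYB98 reached at most 0.152 CPM in any library and AT4G06845 had no count. CESA4 shares 17 bases with AT5G44020 on its own strand, a gene at a mean of 254 CPM in 2'-AA and 287 CPM in flg22 libraries, against 328 CPM in mock libraries, with more than 10 times the counts of CESA4 and in the same order of groups. On the other strand CESA4 shares 65 bases with AT5G44040, at 13.2 CPM in 2'-AA and 15.2 CPM in flg22 libraries, against 19.5 CPM in mock libraries. CESA1, CESA3 and CESA7 each share 28 to 74 bases with 1 gene on the other strand, and all of these were also lower in the means of both treatments; the partner of CESA1, AT4G32400, was at 29.0 CPM in 2'-AA and 34.1 CPM in flg22 libraries, against 71.3 CPM in mock libraries. The labels do not state whether the counting used strand, and the part of reads from shared bases in the CESA values was not tested. The 250 bases before the 3 genes are shown because the genes fell together: CESA4 held 1 match to the MYB letters given above, on the other strand and in capitals, and CESA7 and CESA8 held none.
CESA4 (chr5:17714140-17714389, plus strand): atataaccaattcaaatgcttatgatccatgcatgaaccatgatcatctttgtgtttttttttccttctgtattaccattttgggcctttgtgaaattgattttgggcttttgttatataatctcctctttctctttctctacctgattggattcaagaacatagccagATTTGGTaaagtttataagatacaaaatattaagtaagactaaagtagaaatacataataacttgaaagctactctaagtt
CESA7 (chr5:5741501-5741750, minus strand): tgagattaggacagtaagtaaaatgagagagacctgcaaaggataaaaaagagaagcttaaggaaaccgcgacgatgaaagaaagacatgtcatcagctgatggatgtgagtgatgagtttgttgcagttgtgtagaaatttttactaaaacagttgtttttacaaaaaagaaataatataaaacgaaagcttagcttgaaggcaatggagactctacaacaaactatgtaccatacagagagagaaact
CESA8 (chr4:10316887-10317136, minus strand): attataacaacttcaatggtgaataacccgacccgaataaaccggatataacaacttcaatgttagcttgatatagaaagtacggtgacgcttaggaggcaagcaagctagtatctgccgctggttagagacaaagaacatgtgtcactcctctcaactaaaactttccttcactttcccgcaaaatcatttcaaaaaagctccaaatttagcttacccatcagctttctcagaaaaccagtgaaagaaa
The absence of a match says only that these letters are not in these windows.

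**Figure D2:**
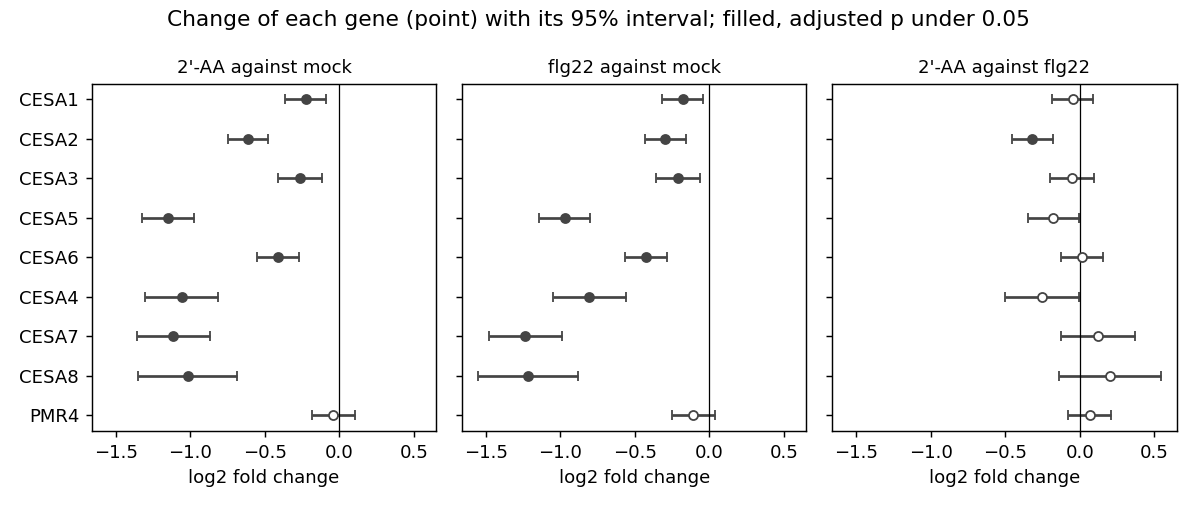
Log2 fold change (horizontal axis) of each gene with its 95% interval for 2'-AA against mock, flg22 against mock and 2'-AA against flg22; filled points have an adjusted p under 0.05. CESA5, CESA4, CESA7 and CESA8 lie near -1 in both comparisons with mock, and in the comparison of the 2 treatments the filled point is CESA2.

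PMR4 (AT4G03550, chr4:1573266-1579820, plus strand, 5 exons) had 84.1, 84.8 and 83.4 CPM in 2'-AA libraries and 85.7, 76.0 and 79.0 CPM in flg22 libraries, against 91.2, 87.9 and 80.4 CPM in mock libraries. The 3 groups overlapped. The log2 fold change was -0.04 in 2'-AA (95% interval -0.18 to 0.10, adjusted p = 0.62) and -0.11 in flg22 seedlings (-0.25 to 0.04, adjusted p = 0.18). The intervals span ratios of 0.880 to 1.07 for 2'-AA and 0.839 to 1.03 for flg22, so a rise of more than about 1.07 times lies outside both. A transcript level says nothing of the enzyme's activity or of callose, which were not measured. The 250 bases before PMR4 are shown as those of the 1 gene that was not called, and they held no match to any of the 3 elements.
PMR4 (chr4:1573016-1573265, plus strand): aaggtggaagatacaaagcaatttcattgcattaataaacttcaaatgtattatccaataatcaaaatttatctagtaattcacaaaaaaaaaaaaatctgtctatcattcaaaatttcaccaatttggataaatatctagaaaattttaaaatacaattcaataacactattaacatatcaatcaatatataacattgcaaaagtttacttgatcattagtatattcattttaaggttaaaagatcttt

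Between the treatments 1 of the 9 genes was called: CESA2 was 19.8% lower in 2'-AA than in flg22 seedlings (log2 fold change -0.32, SE 0.06, adjusted p = 0.0040). Of all tested genes 15.8% were called in this comparison and 7.89% were called lower. CESA2, CESA5 and CESA4 had 2'-AA libraries that did not overlap the flg22 libraries, as 32.6% of tested genes did, but CESA5 (-0.18, 95% interval -0.35 to -0.01, adjusted p = 0.16) and CESA4 (-0.25, -0.50 to -0.0039, adjusted p = 0.17) were not called. CESA7 (0.12, -0.13 to 0.37, adjusted p = 0.54) and CESA8 (0.20, -0.14 to 0.54, adjusted p = 0.45) had higher means in 2'-AA libraries, and for both the 2 groups overlapped. CESA1, CESA3, CESA6 and PMR4 had log2 fold changes between -0.05 and 0.07, with adjusted p between 0.56 and 0.92.

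Because the genes differ in length, levels were set against each other per kilobase of coding sequence. In mock seedlings the order was CESA3 (170 ± 7.74 CPM per kb, SD, n = 3), CESA1 (149 ± 7.98), CESA6 (118 ± 6.96), CESA2 (69.0 ± 2.18), CESA5 (56.0 ± 5.83), PMR4 (16.2 ± 1.04), CESA4 (9.08 ± 1.10), CESA7 (6.54 ± 0.383) and CESA8 (5.39 ± 0.387). The order of the means was the same in all 3 groups. Libraries of neighbours in this order overlapped for CESA3 and CESA1 in flg22 seedlings and for CESA7 and CESA8 in both treatments, and for no other pair. The summed level of the 8 CESA genes was 438 ± 16.7 CPM per kb in 2'-AA and 461 ± 25.8 in flg22 seedlings, against 583 ± 30.1 in mock seedlings (SD, n = 3 each).

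Within that sum, the share of the 3 secondary wall genes was 2.37%, 2.40% and 2.11% in 2'-AA libraries and 2.18%, 2.04% and 2.49% in flg22 libraries, against 3.78%, 3.53% and 3.51% in mock libraries. The share of CESA5 was 5.76% ± 0.0918 in 2'-AA and 6.21% ± 0.455 in flg22 seedlings, against 9.59% ± 0.605 in mock seedlings. The shares of CESA1 and CESA3 were correspondingly larger, 29.1% and 32.3% in 2'-AA and 28.5% and 31.7% in flg22 seedlings, against 25.6% and 29.1% in mock seedlings. CESA6 had a share of 20.3% in 2'-AA and 19.1% in flg22 seedlings, against 20.3% in mock seedlings. These are shares of transcripts per length and not of protein.

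**Figure D3:**
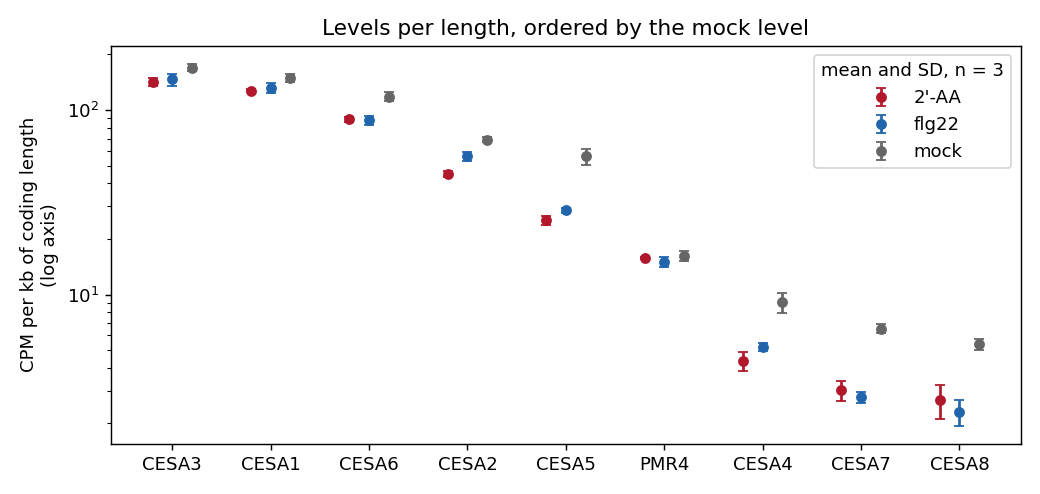
CPM per kilobase of coding length (log axis) of the 9 genes, ordered by their mock level; points and bars are the mean and SD of 3 libraries of 2'-AA, flg22 and mock seedlings. The primary wall genes lie above PMR4 and the secondary wall genes below it in every group.

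The secondary wall genes were set beside other genes of the same wall, from lists chosen with earlier results of these data known. The counts of this and every later list stand beside the shares over all tested genes. Those shares were 62.2% called and 31.1% called lower in 2'-AA, and 59.2% called and 29.4% called lower in flg22 seedlings. Of 19 enzymes and wall proteins of xylan, lignin and cellulose in thickened walls, 14 fell and 5 were not called in 2'-AA seedlings (median log2 fold change -0.75), and 14 fell and 5 were not called in flg22 seedlings (median -0.96). The fasciclin-like protein FLA11 fell in both (-1.14 in 2'-AA and -1.06 in flg22 seedlings), as did the chitinase-like protein CTL2 (-0.88 in 2'-AA and -0.97 in flg22), the laccase LAC17 (-0.75 in 2'-AA and -1.29 in flg22) and the xylan glycosyltransferase IRX9 (-1.29 in 2'-AA and -1.01 in flg22). The laccase LAC4 fell by 0.33 on the log2 scale in 2'-AA and by 0.91 in flg22 seedlings and was higher in 2'-AA than in flg22 seedlings (0.58, SE 0.10, adjusted p = 0.0020).

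Markers of xylem vessels moved with these genes. All 5 vessel markers fell in both treatments (median -0.59 in 2'-AA and -0.94 in flg22 seedlings), among them the cysteine protease XCP1 (-0.81 in 2'-AA and -1.10 in flg22) and the ribonuclease RNS3 (-0.59 in 2'-AA and -0.90 in flg22). Their summed level was 79.1 to 91.5 CPM in 2'-AA and 60.8 to 82.4 CPM in flg22 libraries, against 113 to 128 CPM in mock libraries, and none was at 0. The summed level of the 3 secondary wall CESA genes was 27.9 to 33.9 CPM in 2'-AA and 30.3 to 35.1 CPM in flg22 libraries, against 60.8 to 68.5 CPM in mock libraries. Of 5 phloem markers, 2 rose and 3 were not called in both treatments, with a summed level of 557 to 654 CPM in 2'-AA and 462 to 502 CPM in flg22 libraries, against 316 to 358 CPM in mock libraries, and none was at 0. The companion cell sucrose carrier SUC2 rose by 1.43 in 2'-AA and 0.82 in flg22 seedlings (means of 307 and 200 CPM, against 114 CPM in mock). PP2-A1 was the other that rose (means of 185 CPM in 2'-AA and 157 CPM in flg22, against 110 CPM in mock). The sum largely follows these 2 genes. The part of these marker changes in the CESA values was not tested.

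The listed transcription factors of the secondary wall programme were called in both directions, but the list mixes activators with repressors such as VNI2 and XND1. Several factors that were not called had low levels and wide standard errors, so a missing call does not show an unchanged level. Of 20 listed factors 16 could be tested, and 3 rose, 3 fell and 10 were not called in 2'-AA seedlings, while 2 rose, 4 fell and 10 were not called in flg22 seedlings (median -0.12 in 2'-AA and -0.23 in flg22). VNI2, a NAC repressor that binds VND7, rose to 126 to 151 CPM in 2'-AA libraries and 97.9 to 106 CPM in flg22 libraries, against 52.1 to 54.8 CPM in mock libraries (log2 fold change 1.34 in 2'-AA, adjusted p = 7.5e-09, and 0.93 in flg22, adjusted p = 2.5e-07). XND1, another NAC repressor of vessel differentiation, rose in 2'-AA seedlings (1.21, adjusted p = 0.0076), had a value of -0.47 in flg22 seedlings (adjusted p = 0.28) and was higher in 2'-AA than in flg22 seedlings (1.68, SE 0.35, adjusted p = 0.0059). VND3, of the VND family of NAC activators of vessel genes, rose in both treatments (0.92 in 2'-AA, adjusted p = 0.0054, and 0.97 in flg22, adjusted p = 0.0043), with 2.40 to 3.85 CPM in 2'-AA and 2.53 to 3.76 CPM in flg22 libraries, against 1.43 to 1.81 CPM in mock libraries. The activators MYB83 (-1.52 in 2'-AA and -1.98 in flg22), MYB103 (-1.81 in 2'-AA and -1.79 in flg22) and VND6 (-1.11 in 2'-AA and -1.39 in flg22) fell in both treatments and had at most 1.97 CPM in any library. MYB46, the partner of MYB83 and named here after its values were seen, had -0.72 in 2'-AA (adjusted p = 0.093) and fell by 1.15 in flg22 seedlings (adjusted p = 0.015). NST1, NST2, NST3 and MYB58, factors known from fibres and lignin, had no count in any library.

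**Figure D4:**
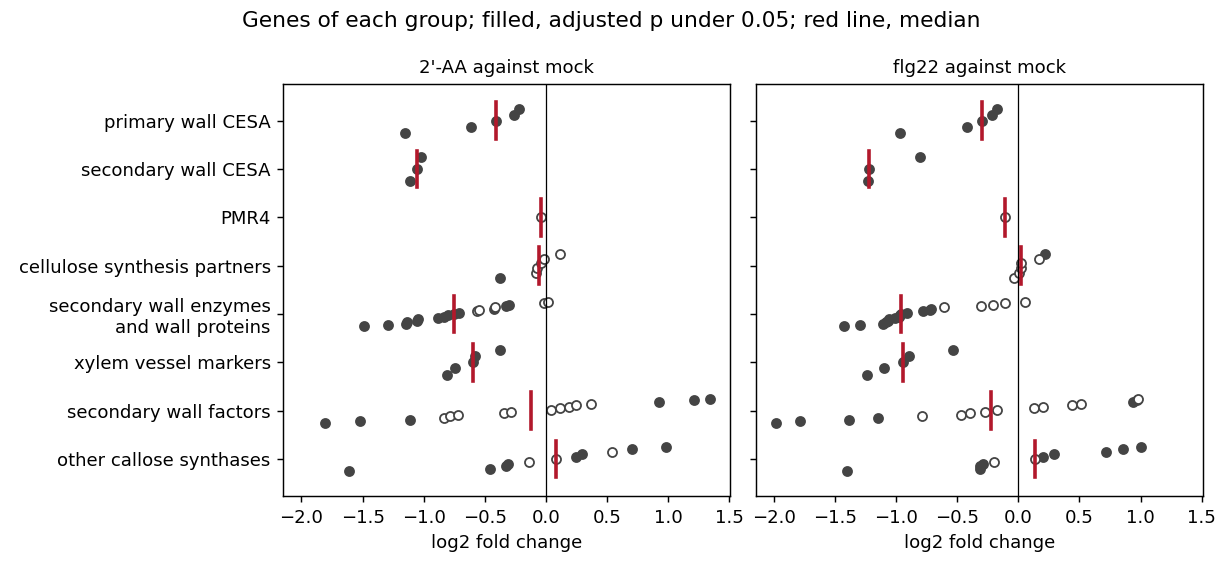
Log2 fold change (horizontal axis) of single genes, 1 point each, by group of genes for 2'-AA against mock and flg22 against mock; filled points have an adjusted p under 0.05 and red lines are medians. Secondary wall CESA genes and vessel markers, and nearly all wall enzymes, lie to the left of 0, while most partners of the primary complex lie close to 0.

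Of 12 listed partners of the CESA proteins in cellulose synthesis only 6 were kept, because the reference gives another or no name for the other 6 loci, so the counts cover part of the list. Of the 6 kept, 1 fell and 5 were not called in 2'-AA seedlings (median -0.06), and 1 rose and 5 were not called in flg22 seedlings (median 0.02). The chitinase-like protein CTL1 had 239 to 268 CPM in 2'-AA and 291 to 347 CPM in flg22 libraries, against 323 to 335 CPM in mock libraries, and was lower in 2'-AA than in mock (-0.38, SE 0.07, adjusted p = 0.00046) and than in flg22 seedlings (-0.34, SE 0.07, adjusted p = 0.0059). CSI3, a relative of the protein that ties the complex to microtubules, rose by 0.22 in flg22 seedlings (adjusted p = 0.038). CESA9, a relative of CESA2 known from seed coats, was not called, with 1.37 to 1.91 CPM in 2'-AA and 1.88 to 2.82 CPM in flg22 libraries, against 1.44 to 1.68 CPM in mock libraries, and CESA10 was at most 0.0987 CPM and too low to test.

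Related wall synthases were called in both directions. Of 21 cellulose synthase-like genes, 3 rose, 14 fell and 4 were not called in 2'-AA seedlings (median -0.43), and 3 rose, 10 fell and 8 were not called in flg22 seedlings (median -0.27). Over all tested genes the share called was 62.2% in 2'-AA and 59.2% in flg22 seedlings, and the share called lower 31.1% and 29.4%. The glucomannan synthase CSLA09 fell (log2 fold change -2.14 in 2'-AA and -1.70 in flg22 seedlings), and CSLE1 rose (2.62 in 2'-AA and 2.33 in flg22). Of 3 xyloglucan xylosyltransferases 2 fell and 1 was not called in both treatments, XXT1 by 1.12 in 2'-AA and 0.73 in flg22 seedlings. Of 6 sucrose synthases, which can supply UDP-glucose, 1 rose, 1 fell and 4 were not called in 2'-AA seedlings. In flg22 seedlings 2 rose, 2 fell and 2 were not called. SUS3 rose by 1.88 in 2'-AA and 0.58 in flg22 seedlings, while SUS4 fell in both (-0.90 in 2'-AA and -1.83 in flg22). SUS1 fell in flg22 seedlings (-0.71) and was not called in 2'-AA seedlings (-0.26, adjusted p = 0.085). Of 5 wall-sensing receptor kinases, 3 rose and 2 fell in both treatments. THE1, found as a suppressor of a cesa6 mutant, fell by 1.13 in 2'-AA and 0.92 in flg22 seedlings, while its relative FER rose by 0.29 in 2'-AA and 0.24 in flg22 seedlings.

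Several other callose synthases were called, in both directions. Of the 11, 4 rose, 4 fell and 3 were not called in 2'-AA seedlings (median 0.08), and 5 rose, 4 fell and 2 were not called in flg22 seedlings (median 0.14). Among all tested genes 62.2% were called in 2'-AA and 59.2% in flg22 seedlings, with 31.1% and 29.4% called lower. Calls in both directions are thus not particular to this family. CALS1, a synthase known from the cell plate and from plasmodesmata, had 140 to 146 CPM in 2'-AA and 164 to 192 CPM in flg22 libraries, against 86.0 to 91.0 CPM in mock libraries (0.71 in 2'-AA, adjusted p = 9.4e-07, and 1.01 in flg22, adjusted p = 4.5e-08). GSL11 had 54.6 to 65.2 CPM in 2'-AA and 46.1 to 54.7 CPM in flg22 libraries, against 28.3 to 33.4 CPM in mock libraries (0.99 in 2'-AA, adjusted p = 6.4e-07, and 0.71 in flg22, adjusted p = 1.6e-05). GSL3 rose by 0.29 in both, and CALS3, which makes callose at plasmodesmata, fell by 0.46 in 2'-AA and 0.29 in flg22 seedlings.

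Genes for callose breakdown and for plasmodesmal proteins were also called in both directions. Of 9 listed genes 7 were kept and 6 could be tested, 4 of them for callose binding or breakdown and 2 for plasmodesmal receptor-like proteins (PDLP1 and PDLP5); 2 rose and 4 fell in 2'-AA seedlings, while 2 rose, 2 fell and 2 were not called in flg22 seedlings (median -0.63 in 2'-AA and 0.38 in flg22). The plasmodesmal callose-binding protein PDCB1 fell by 1.05 in 2'-AA and 0.87 in flg22 seedlings, and the plasmodesmal glucanase BG_PPAP fell by 0.71 in 2'-AA and 0.42 in flg22 seedlings. The glucanase BG2, also known as PR2, had 0.0762 to 0.415 CPM in 2'-AA and 5.90 to 8.19 CPM in flg22 libraries, against 0.461 to 0.803 CPM in mock libraries. It was thus lower than mock in 2'-AA (-1.50, adjusted p = 0.016), higher than mock in flg22 seedlings (3.47, adjusted p = 2.6e-06) and lower in 2'-AA than in flg22 seedlings (-4.97, SE 0.42). BG3 rose in both, by 3.53 in 2'-AA (SE 0.44) and 5.37 in flg22 seedlings (SE 0.42), from 0.0608 to 0.329 CPM in mock libraries. The lowest 2'-AA library of BG2 and the lowest mock library of BG3 held fewer than 3 counts. The sizes of these fold changes are therefore uncertain. PDLP1 rose by 0.91 in 2'-AA (adjusted p = 0.011) and had 0.51 in flg22 seedlings (adjusted p = 0.14), and PDLP5 fell by 0.54 in 2'-AA (adjusted p = 0.049) and had 0.25 in flg22 seedlings (adjusted p = 0.35).

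The other powdery mildew resistance genes, found like PMR4 through mutants on which the fungus grows poorly, and the GTPase RABA4C, known to bind PMR4, were counted together. Of these 4 genes 2 rose and 2 were not called in 2'-AA seedlings, and all 4 rose in flg22 seedlings (median 0.90 in 2'-AA and 1.03 in flg22). Over all tested genes 62.2% were called in 2'-AA and 59.2% in flg22 seedlings, of which 31.1% and 29.4% of all tested genes were called lower. MLO2, also PMR2, had 222 to 282 CPM in 2'-AA and 217 to 279 CPM in flg22 libraries, against 60.9 to 67.6 CPM in mock libraries (1.97 in 2'-AA and 1.95 in flg22). PMR5, of a family of wall acetyltransferases, rose by 1.25 in 2'-AA and 1.42 in flg22 seedlings. PMR6 had 0.06 in 2'-AA (adjusted p = 0.55) and rose by 0.41 in flg22 seedlings (adjusted p = 0.00035). RABA4C had 0.54 in 2'-AA (adjusted p = 0.089) and rose by 0.65 in flg22 seedlings (adjusted p = 0.047).

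Among 15419 genes with a mean of at least 5 CPM, the patterns most like that of PMR4 over the 9 libraries were those of AT1G63850 (Pearson r = 0.920), AREB3 (0.908) and AT5G24740 (0.902), and no other gene passed 0.9. For the mean of the secondary wall CESA genes the nearest were AT1G01210 (0.994), AT3G16060 (0.994) and RHM1 (0.993), but 2690 genes passed 0.9. For the mean of the primary wall CESA genes the nearest were GAE1 (0.991) and SHV3 (0.990), and 2221 genes passed 0.9. Among the 8 CESA genes r was between 0.74 and 0.98, and between PMR4 and each of them it was between 0.00 and 0.49. All these values are over the same 9 libraries, share their depth scaling and are a description. Those among the CESA genes and for their means follow the split between treated and mock libraries. PMR4 does not follow it, as its treated and mock libraries overlapped. The genes nearest PMR4 were picked as the highest of 15419.

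Clock genes also differed between the treated and mock seedlings. Of 11, 6 rose and 4 fell in 2'-AA and 6 rose and 4 fell in flg22 seedlings, and between the treatments none of the 11 was called. TOC1 was at 2.99 in 2'-AA and 2.96 in flg22 seedlings on the log2 scale. PRR5 had means of 51.7 CPM in 2'-AA and 49.7 CPM in flg22 libraries, against 1.76 CPM in mock libraries. LHY went the other way, with means of 2.91 CPM in 2'-AA and 6.02 CPM in flg22 libraries, against 221 CPM in mock libraries. The labels do not state the hour of harvest, and the part of the clock in the CESA values was not tested.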

How the data were processed

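The deposited table holds whole-number counts per gene for the 9 libraries, which the authors made with Trimmomatic 0.36, HISAT2 and the TAIR10 genome, per the submitters' processing notes, which also name edgeR; libraries were made from total RNA with a TruSeq kit, per the labels' protocols. The sources used here name neither the counting tool nor a strand setting. Of 32833 loci, 32548 matched the RefSeq TAIR10.1 gene table, from which names, coordinates and upstream bases were taken. Genes with low counts were left out with filterByExpr (minimum count 10), which kept 21059. One model over the 3 groups, with no covariate, was fitted with edgeR 4.0.16 (TMM, quasi-likelihood test, 6 residual degrees of freedom, biological coefficient of variation 0.119) in R 4.3.3, and p-values were adjusted over all tested genes. The steps were also run on simulated counts with the same spread for every gene and few changed genes. That setting does not cover data in which most genes were called, as here in both comparisons with mock.

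The members and gene lists were chosen with earlier results of these data known. All 9 members are reported. Of each list, up to 4 called genes with the smallest p per comparison with mock were eligible to be named. Where none was called, up to 2 tested genes with the smallest p were eligible (CESA9). MYB46, PDLP5, LHY, NST1, NST2, NST3, MYB58 and CESA10 were named after their values were seen. Of 134 list entries 125 were kept, because the reference gives another or no name for 9, of which 6 were in the list of partners of the CESA proteins and 2 in that of callose breakdown. Alternatives were RLE scaling, no filter, DESeq2 1.42.0, limma-voom 3.58.1, a test against 1.5-fold, fits of 2 groups, a replicate block, the 3 libraries that stood apart, and each library left out.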

Additional observations from a re-analysis of the deposited data

How the results depend on the processing

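Over 405 values of the 9 genes under the alternatives, 382 kept their direction and call, 16 kept the direction and lost the call, and 7 small values changed sign. With a test against 1.5-fold the members called fell to 4 for 2'-AA and 4 for flg22 against mock (CESA5, CESA4, CESA7 and CESA8 in both) and 0 for 2'-AA against flg22, and the genes called to 5586, 4836 and 473 in that order. Without the 3 libraries apart, 2090 genes were called between the treatments and CESA8 was at -0.0038. With each library left out in turn, the members called were 8 to 8 for 2'-AA, 6 to 8 for flg22 against mock and 1 to 1 between the treatments, and the genes called were 12060 to 12382, 11293 to 12162 and 2204 to 3050; the lowest count between the treatments came without 2'-AA 2. In the same leave-outs PMR4 in 2'-AA against mock ranged from -0.078 to 0.0080 (highest without mock 1), and between the treatments CESA1 ranged from -0.079 to 0.0039 and CESA3 from -0.090 to 0.013 (both highest without flg22 2), and CESA6 from -0.010 to 0.059. The replicate block left 8, 8 and 1 members called and 12918, 12264 and 3082 genes called. Libraries of the same number deviated together with r of only -0.12 to 0.17. Such values show no sign of pairing by number, but they cannot tell whether those samples were grown or harvested together. Lengths of transcripts in place of coding lengths gave secondary wall shares of 2.60% in 2'-AA, 2.54% in flg22 and 4.08% in mock seedlings. With 3 libraries a group, changes of CESA1 and CESA3 near 0.2 on the log2 scale were at the edge of what could be called.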
